A study of Mus musculus with 24 samples.

Results

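The 36 genes studied here, of the endoplasmic reticulum (ER) folding machinery and of the unfolded protein response, were followed in the left ventricle of mice with angiotensin II (ANG II)-induced hypertensive left ventricular hypertrophy (hypertensive-LVH). They were taken by gene symbol, with no value in the rule, and all 36 are among the 14912 genes of the expression table. By role they are 14 chaperones and folding enzymes, 6 translocon genes, 7 genes of ER-associated degradation (ERAD), 3 genes of stress sensing and 6 stress effectors. The control group was 12 male wild-type C57BL/6J mice given saline, and the hypertensive-LVH group was 12 such mice given ANG II at 1500 ng/kg/min, both for 7 days from a mini-pump under the skin. Age was not given in the sources used here. Hearts were flushed with saline, poly(A) RNA of the whole left ventricle was sequenced, and levels were given as FPKM, a fragment count scaled to transcript length and sequencing depth. The bulk tissue holds every cell type of the ventricle, so fewer cells of a type and less RNA per cell cannot be told apart in these values.

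Secreted and membrane proteins enter the ER through the SEC61 channel, fold there with the help of chaperones, and are returned to the cytosol for degradation when folding fails. When unfolded proteins accumulate, the sensors ATF6, IRE1α (Ern1) and PERK signal to the nucleus: ATF6 and spliced XBP1 raise chaperone and ERAD genes, while PERK leads to translation of ATF4, which drives genes of amino acid supply, feedback and cell death. In the heart this response accompanies pressure overload, when cardiomyocytes enlarge and fibroblasts secrete matrix. Much of it acts through splicing, cleavage or translation, which a gene-level RNA value does not show.

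The chaperone genes are known for the ER stress response element (ERSE), in which CCAAT, bound by NF-Y, lies 9 bases before CCACG, bound by ATF6 or XBP1. Promoters from 250 bases before to 50 bases after the start, from RefSeq on GRCm38.p6, matched 30 of the 36 genes by symbol, with 2 entries for Derl2 and none for Atf6, Derl1, Hyou1, Manf, Sec61a1 and Ssr2. Both strands were searched. An ERSE was found in 9 of the 31 promoters (29.0%), against 39 of 32851 promoters in all (0.119%). Those of the genes whose levels are contrasted below are shown, with CCAAT and CCACG in capitals, each read 5′ to 3′ in the direction of the element.
Hspa5: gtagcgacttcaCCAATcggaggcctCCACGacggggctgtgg
Calr: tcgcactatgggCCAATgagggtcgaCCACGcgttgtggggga
Hsp90b1: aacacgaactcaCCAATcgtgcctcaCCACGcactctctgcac
Dnajc3: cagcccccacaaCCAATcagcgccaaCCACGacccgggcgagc
Derl3: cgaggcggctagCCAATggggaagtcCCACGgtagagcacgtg
Coordinates are those of the whole stretch shown and distances those of the element. The Hspa5 stretch is at chr2:34772013-34772055 on the plus strand, with its element 65 to 47 bases before the gene's start. The Calr stretch is at chr8:84847063-84847105, opposite to this minus-strand gene, 162 to 144 bases before the start. For Hsp90b1, also a minus-strand gene, the stretch shown is at chr10:86705521-86705563 in the opposite orientation, 107 to 89 bases before the start, and a second lies farther upstream. The Dnajc3 stretch is at chr14:118937815-118937857 on the plus strand, 105 to 87 bases before the start. That of Derl3 is at chr10:75893230-75893272 on the minus strand, opposite to the gene, 156 to 138 bases before the start. The other ERSE matches were in Canx, Pdia6, Creld2 and Syvn1.

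Other elements were rarer among these genes. The shorter ERSE-II (ATTGG, 1 base, CCACG) was in Herpud1 and Dnajb11, 2 of 31 promoters (6.45%) against 0.0365% of all promoters. The core of the element bound by XBP1, TGACGTGG, was in none of the 31 and in 0.676% of all. A core of the site of ATF4 with its partners, TGATGNAA, was in Asns, Chac1, Trib3 and Herpud1, 12.9% against 3.97% of all promoters. The Asns match, with the core in capitals except its free base, is shown as that of an effector.
Asns: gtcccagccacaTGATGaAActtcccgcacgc
It lies at chr6:7693213-7693244 on the minus strand, in the gene's own direction, 23 to 16 bases before the start. A match in these letters is a description and not a bound site, and no match says only that the letters are not in this window.

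With ANG II, 14 of the 36 genes were higher and 0 were lower at an adjusted p under 0.05 in limma over all 14026 genes tested. The share higher was 38.9%, where 20.9% of all genes tested were higher and 12.6% were lower (2928 and 1769 genes). This split of all genes depended on scaling: it was 2394 and 2235 with median-ratio scaling, where 17.1% of all genes and 11 of the 36 (30.6%) were higher. It was 1922 and 2930 after quantile normalization, where 13.7% of all genes and 12 of the 36 (33.3%) were higher. No gene of the 36 was lower at an unadjusted p under 0.05 either, where 16 were higher. Genes at an unadjusted p were not counted over all genes tested. A Wilcoxon rank-sum test called 13 of the 36 higher and 0 lower. Over all genes that test also called more genes higher than lower. Changes were small: log2 fold changes of the 14 lay between 0.16 and 0.40 on the log2(FPKM + 1) scale, which understates the change of low genes. None passed a fold limit of 0.5, the study's limit on a log fold change, read here as log2, which 4.52% of all genes tested passed upwards. Levels of the groups overlapped for all 36 genes, a count that was not made over all genes tested. The median log2 fold change was 0.11 over the 36 and 0.05 over all genes tested.

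**Figure D1:**
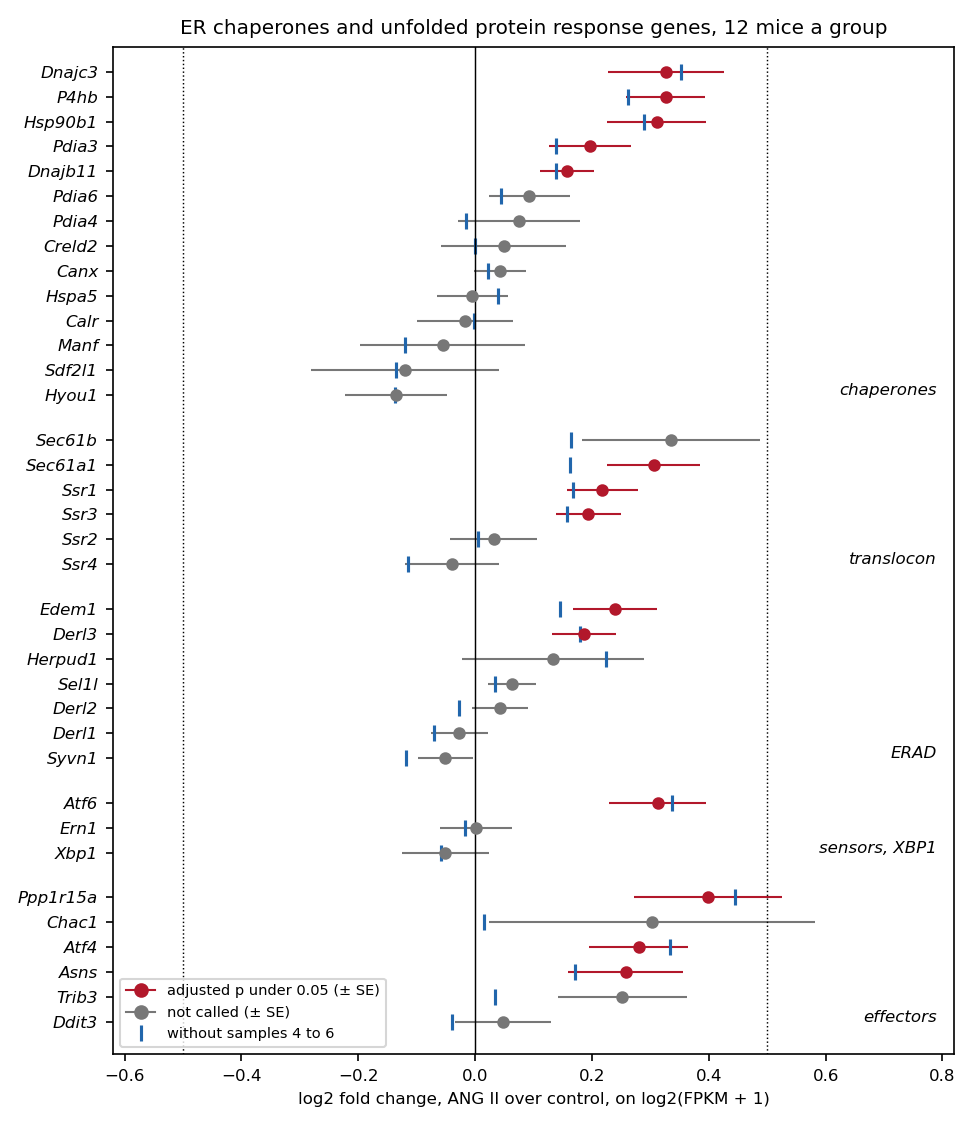
Log2 fold change of each of the 36 genes, ANG II over control (x axis, log2(FPKM + 1)), by role; points with bars are the estimate ± SE from 12 mice a group, red where the adjusted p was under 0.05, and blue ticks are the estimate without samples 4 to 6. The 14 red points lie between 0.16 and 0.40, below the dotted line at 0.5, and the ticks of Sec61a1, Sec61b, Trib3 and Chac1 lie nearer 0 than their points.

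Values of mice with neighbouring numbers were linked: exact ties divide each group into 4 sets, samples 1 to 3, 4 to 6, 7 to 9 and 10 to 12, with 218 to 546 tied genes in a pair of mice of 1 set and at most 12 in a pair of 1 group from different sets. The balance of all genes leaned most towards ANG II in samples 4 to 6, where 74.6% of all genes tested had a higher mean with ANG II, against 45.3% to 55.8% in the other sets. Without these 6 mice, 6 of the 36 genes (16.7%) were higher and 0 lower, with 8.4% of all genes higher. The 6 were Hsp90b1, P4hb, Dnajc3, Atf6, Atf4 and Ppp1r15a. Without samples 10 to 12 there were 10 (27.8%, all genes 15.8%), and without samples 1 to 3 there were 14 (38.9%, all genes 19.2%). Without samples 7 to 9, 7 of the 36 were higher (19.4%), close to the 17.8% of all genes. These were P4hb, Dnajc3, Atf6, Edem1, Sec61a1, Ssr3 and Trib3. Only P4hb and Atf6 passed in each of the 40 fits made, with adjusted p of at most 0.0273 and 0.0353.

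Among the chaperones, 5 of 14 rose (35.7%, all genes 20.9%) and the main one did not pass the test. Hspa5 encodes BiP, the Hsp70 chaperone of the ER whose rise is the usual mark of the unfolded protein response. Its lowest, median and highest FPKM were 199.9, 240.2 and 288.4 in controls. With ANG II they were 195.4, 240.9 and 279.5. The groups covered the same range, and the log2 fold change was -0.005 ± 0.06 (SE, n = 12 a group; limma adjusted p = 0.960).

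P4hb, the disulfide isomerase that is also a subunit of the enzyme that hydroxylates collagen, had the smallest adjusted p of the 36. Control levels ran from 102.5 over a median of 115.8 to 140.5 FPKM. ANG II levels ran from 123.1 over 146.3 to 186.2 FPKM. All 12 ANG II mice were above the control median, 8 were above every control, and the groups overlapped only in between. The log2 fold change was 0.33 ± 0.07 (SE, n = 12; limma adjusted p = 0.000803), and 0.26 without samples 4 to 6 (adjusted p = 0.0273). It was higher by the mean in each of the 4 sets.

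Hsp90b1 encodes GRP94, the Hsp90 of the ER. Its control FPKM was 68.8 at the lowest, 83.0 at the median and 118.7 at the highest. The ANG II mice lay at 81.0, 102.8 and 134.0. Control 2 stood above the other controls and only 2 ANG II mice exceeded it. This gave a log2 fold change of 0.31 ± 0.08 (SE, n = 12; adjusted p = 0.00677), and 0.29 without samples 4 to 6 (adjusted p = 0.0434). Without samples 7 to 9 it was 0.24 and no longer passed (adjusted p = 0.0754).

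Dnajc3 encodes P58IPK, a J-domain cochaperone of BiP that also inhibits PERK. In controls it lay between 7.77 and 12.8 FPKM with a median of 10.3. In the ANG II mice it lay between 10.6 and 20.4 with a median of 11.8. Most ANG II mice were close to the upper controls, and 5 exceeded all of them, with ANG II 12 the highest. Its log2 fold change was 0.33 ± 0.10 (SE, n = 12; adjusted p = 0.0139), and 0.35 without samples 4 to 6 (adjusted p = 0.0332). It missed the threshold without samples 1 to 3 (0.29, adjusted p = 0.0602) and without samples 10 to 12 (0.28, adjusted p = 0.0618).

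The other chaperones that rose were Pdia3, the disulfide isomerase that works with calnexin and calreticulin, and Dnajb11, another J-domain partner of BiP. Pdia3 went from a mean of 92.1 ± 9.36 to 106 ± 15.5 FPKM (SD, n = 12), a log2 fold change of 0.20 ± 0.07 (SE; adjusted p = 0.0340). Leaving out any 1 of 8 mice (ANG II 1, 6, 8 or 11, control 1, 4, 6 or 8) lifted its adjusted p above 0.05, to at most 0.0652, and without samples 4 to 6 it was 0.257. Dnajb11 was between 23.2 and 30.2 FPKM in controls and between 26.4 and 32.6 with ANG II. All 12 ANG II mice were above the control median, with a log2 fold change of 0.16 ± 0.05 (SE, n = 12; adjusted p = 0.0111), which became 0.14 without samples 4 to 6 (adjusted p = 0.0912).

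The 8 others besides Hspa5 that did not pass included the lectin chaperones. Calreticulin (Calr) had a log2 fold change of -0.02 and calnexin (Canx) 0.04, both with adjusted p above 0.4 (0.886 and 0.467). The isomerases Pdia4 (0.08, adjusted p = 0.600) and Pdia6 (0.09, adjusted p = 0.305) did not pass either. Genes for small soluble ER proteins that are known to be induced by ER stress gave values on both sides of 0: Creld2 0.05, Manf -0.06 and Sdf2l1 -0.12 (adjusted p = 0.746, 0.782 and 0.584). Hyou1, the nucleotide exchange factor of BiP, had the lowest value of the 36 at -0.14 ± 0.09 (SE, n = 12; adjusted p = 0.227). Of the 9 genes with an ERSE, Hsp90b1, Dnajc3 and Derl3 rose, and of the 11 with an ERSE or ERSE-II, 4 rose. Of the 19 with a promoter entry and neither ERSE nor ERSE-II, 8 rose. Of all genes tested, with or without such an element, 20.9% were higher. These groups are small, and a difference between them was not tested.

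**Figure D2:**
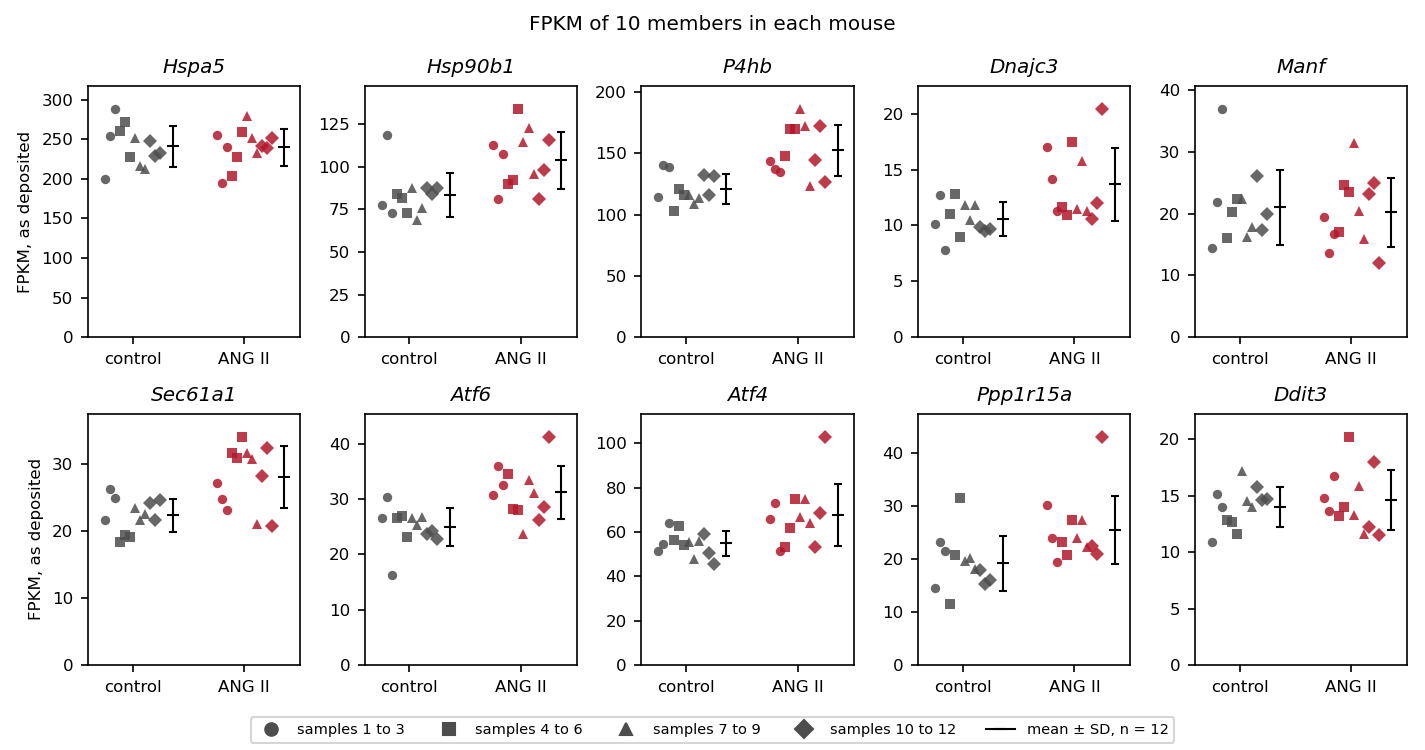
FPKM of 10 of the genes in each mouse (y axis, from 0); marker shapes give the 4 sets of samples and the bars beside each group are mean ± SD, n = 12. The groups overlap over most of their range for Hspa5, Manf and Ddit3, while all ANG II values of P4hb and Ppp1r15a lie above the control median.

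Of the 6 translocon genes, 3 rose (50.0%, all genes 20.9%), and each of those calls was lost without samples 4 to 6. Sec61a1, the channel subunit itself, ran from 18.4 over 22.1 to 26.2 FPKM in controls. It ran from 20.8 over 29.4 to 34.1 FPKM with ANG II. The 3 controls of samples 4 to 6 were the lowest of their group and 8 ANG II mice exceeded every control. Sec61a1 had a log2 fold change of 0.31 ± 0.08 (SE, n = 12; adjusted p = 0.00502), and 0.16 without samples 4 to 6 (adjusted p = 0.167).

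Ssr1 and Ssr3 encode subunits of the translocon-associated protein (TRAP) complex, which helps some signal sequences to enter. Ssr1 had a log2 fold change of 0.22 ± 0.06 (SE, n = 12; adjusted p = 0.00801), and 0.17 without samples 4 to 6 (adjusted p = 0.0986). Ssr3 had 0.19 ± 0.06 (SE, n = 12; adjusted p = 0.00990), and 0.16 without them (adjusted p = 0.0707). The other TRAP subunits did not pass, with 0.03 for Ssr2 (adjusted p = 0.767) and -0.04 for Ssr4 (adjusted p = 0.729). Sec61b, a small channel subunit, had the largest log2 fold change of the 6 at 0.33 but also the widest spread (SE 0.15, n = 12; adjusted p = 0.0908), with control values of 10.6 to 23.2 FPKM and ANG II values of 8.70 to 27.5 FPKM. It passed when ANG II 12 (adjusted p = 0.0196), control 3 (0.0401) or ANG II 9 (0.0449) was left out.

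In ERAD, 2 of 7 genes rose (28.6%, all genes 20.9%), and 0 of the 7 were called higher without samples 4 to 6. Edem1, the lectin that hands misfolded glycoproteins to degradation, ran from 4.38 over 5.42 to 5.83 FPKM in controls. With ANG II it ran from 4.61 over 6.38 to 7.97 FPKM. The groups overlapped at the low end, but 8 ANG II mice were above every control. Its log2 fold change was 0.24 ± 0.07 (SE, n = 12; adjusted p = 0.0128), and 0.14 without samples 4 to 6 (adjusted p = 0.213).

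Derl3 encodes a derlin, a membrane protein of the retrotranslocation machinery, and is known from secretory cells. Its level was very low, at 0.178 ± 0.106 FPKM in controls and 0.342 ± 0.134 with ANG II (SD, n = 12), the lowest levels of the 36. On the log2(FPKM + 1) scale it differed by 0.19 ± 0.05 (SE, n = 12; adjusted p = 0.0113), and by 0.18 without samples 4 to 6 (adjusted p = 0.0609). It did not pass without samples 7 to 9 (0.14, limma adjusted p = 0.113) or after quantile normalization. Some mice of 1 set had equal Derl3 values, such as 0.167 FPKM in controls 4 and 5 and 0.417 FPKM in ANG II 11 and 12. The related Derl1 (-0.03) and Derl2 (0.04) did not pass, nor did the ligase Syvn1 (HRD1; -0.05) and its partner Sel1l (0.06), with adjusted p = 0.694, 0.513, 0.409 and 0.229. After quantile normalization Syvn1 was called lower.

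Herpud1, which assists the HRD1 complex and carries the ERSE-II, was the most variable gene of ERAD. Control values ran from 99.8 over 164.8 to 188.8 FPKM. ANG II values ran from 90.3 over 157.1 to 354.7 FPKM. The highest, ANG II 12, lay far above the next mice, and the groups otherwise covered nearly the same range. Herpud1 had a log2 fold change of 0.13 ± 0.16 (SE, n = 12; adjusted p = 0.528).

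Of the 3 genes of stress sensing, Atf6 rose. ATF6 is the sensor that is cut in the Golgi to release a transcription factor. Its FPKM in controls ran from 16.3 over 25.9 to 30.4. With ANG II it ran from 23.7 over 30.9 to 41.3. All but 1 of the ANG II mice were above the control median, control 3 was the lowest mouse and ANG II 12 the highest. The log2 fold change was 0.31 ± 0.08 (SE, n = 12; adjusted p = 0.00561), and 0.34 without samples 4 to 6 (adjusted p = 0.0264). Leaving out any 1 mouse kept the adjusted p at 0.0107 or below.

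Ern1 encodes IRE1α, and Xbp1 the factor whose RNA IRE1α splices. Ern1 had a mean of 4.30 ± 0.381 FPKM in controls and 4.33 ± 0.661 with ANG II (SD, n = 12; limma adjusted p = 0.982). Xbp1 had 48.4 ± 7.05 and 46.5 ± 5.90 FPKM (SD, n = 12; limma adjusted p = 0.621). Neither passed the test, and the 2 forms of Xbp1 RNA are not separated in gene-level values.

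Of the 6 effectors, 3 rose (50.0%, all genes 20.9%). Ppp1r15a encodes GADD34, which restores translation by directing dephosphorylation of eIF2α, and had the largest log2 fold change of the 36. Its FPKM ran from 11.4 over 18.8 to 31.5 in controls. In the ANG II mice it ran from 19.4 over 23.5 to 43.0. All 12 ANG II mice were above the control median, while control 6 was above every ANG II mouse but ANG II 12. The log2 fold change was 0.40 ± 0.13 (SE, n = 12; adjusted p = 0.0182), and 0.45 without samples 4 to 6 (adjusted p = 0.0153). It did not pass without samples 7 to 9 (0.42, adjusted p = 0.0644) or without samples 10 to 12 (0.30, adjusted p = 0.115).

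Atf4, the transcription factor of the PERK arm, ran from 45.5 over 54.9 to 64.0 FPKM in controls. With ANG II it ran from 51.5 over 66.3 to 103.0 FPKM. The groups overlapped in the lower part, and 8 ANG II mice exceeded every control. The log2 fold change was 0.28 ± 0.08 (SE, n = 12; adjusted p = 0.0135), and 0.33 without samples 4 to 6 (adjusted p = 0.0252). Without samples 7 to 9 it was 0.25 (adjusted p = 0.0849).

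Asns, the asparagine synthetase that ATF4 induces, rose narrowly. It lay between 1.87 and 4.11 FPKM in controls, with a median of 2.27, and between 2.17 and 4.72 with ANG II, with a median of 3.01. The log2 fold change was 0.26 ± 0.10 (SE, n = 12; adjusted p = 0.0467). Leaving out any 1 of 16 mice took its adjusted p above 0.05, to at most 0.0887, and without samples 4 to 6 it was 0.338.

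Ddit3 encodes CHOP, the factor linked to cell death under ER stress. Control values ran from 10.9 over 14.3 to 17.2 FPKM. ANG II values ran from 11.5 over 13.9 to 20.2 FPKM. The groups covered nearly the same range, with a log2 fold change of 0.05 ± 0.08 (SE, n = 12; adjusted p = 0.674). Chac1, an enzyme that breaks down glutathione, was listed at a value just under 0 in control 4 and otherwise reached 7.23 FPKM in controls and 10.3 with ANG II, with a log2 fold change of 0.30 ± 0.28 (SE, n = 12; adjusted p = 0.413).

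Trib3, a pseudokinase induced by ATF4 and CHOP, was the only gene of the 36 whose difference between the groups itself varied between the 4 sets (limma F-test of group by set, adjusted p = 0.0384; 7.49% of all genes tested passed). Over all mice it had a log2 fold change of 0.25 ± 0.11 (SE, n = 12; adjusted p = 0.0779). Samples 4 to 6 differed by 0.90 (log2), whereas samples 1 to 3 differed by -0.01, samples 7 to 9 by -0.11 and samples 10 to 12 by 0.22. In samples 4 to 6 the 3 ANG II mice were the highest of all 24 and control 6 was the lowest.

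**Figure D3:**
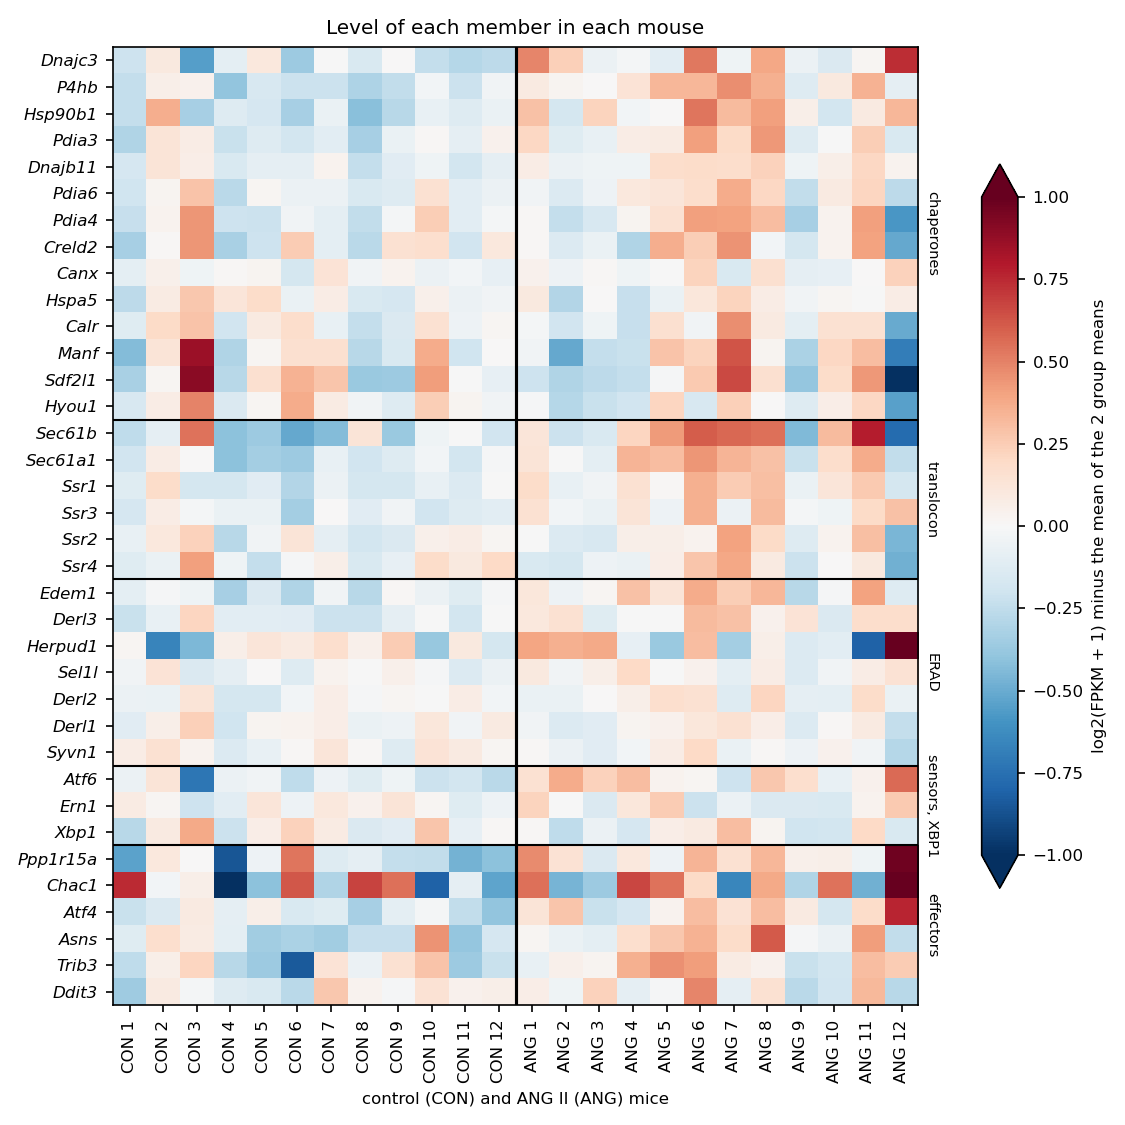
Level of each of the 36 genes (rows, by role) in each of the 24 mice (columns), as log2(FPKM + 1) minus the mean of the group means, with colours limited at 1 on either side. Control 3 and ANG II 7 are red and ANG II 12 is blue for many of the small chaperone and translocon genes, and ANG II 12 is red for Dnajc3, Atf6, Herpud1, Atf4 and Ppp1r15a.

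Set side by side, chaperones and translocon had 8 of 20 genes higher (40.0%), and their median difference was 0.08 on the log2 scale. The effectors had 3 of 6 higher (50.0%) with a median of 0.27. Of all genes tested, 20.9% were higher. By role the medians were 0.06 for chaperones, 0.21 for the translocon, 0.06 for ERAD, 0.00 for stress sensing and 0.27 for effectors, against 0.05 over all genes tested. Each role held both genes that rose and genes at about 0. Without samples 4 to 6 chaperones and translocon had 3 of 20 higher (15.0%) with a median of 0.04. The effectors then had 2 of 6 (33.3%) with a median of 0.10, and all genes tested had 8.4% higher with a median of 0.005. The difference between roles was not tested.

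The 4 sets of samples gave different pictures. In samples 1 to 3, 17 of the 36 genes had a higher mean with ANG II (47.2%, where all genes had 48.5%), and the median difference of the chaperones was -0.10. In samples 4 to 6, 30 did (83.3%, all genes 74.6%), with medians of 0.20 for chaperones, 0.33 for the translocon and 0.41 for effectors. Samples 7 to 9 had 27 (75.0%, all genes 45.3%), and 13 of the 14 chaperones and all 6 translocon genes were among them. Samples 10 to 12 had 23 (63.9%, all genes 55.8%). Of the 36 genes, 12 had a higher mean in all 4 sets, and all 12 were among the 14 called. Dnajb11 and Asns, the other 2 called, were higher in 3. The sets are parts of the data that gave the calls, so this is no separate support for them. The share of all genes higher in all 4 sets was not counted.

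**Figure D4:**
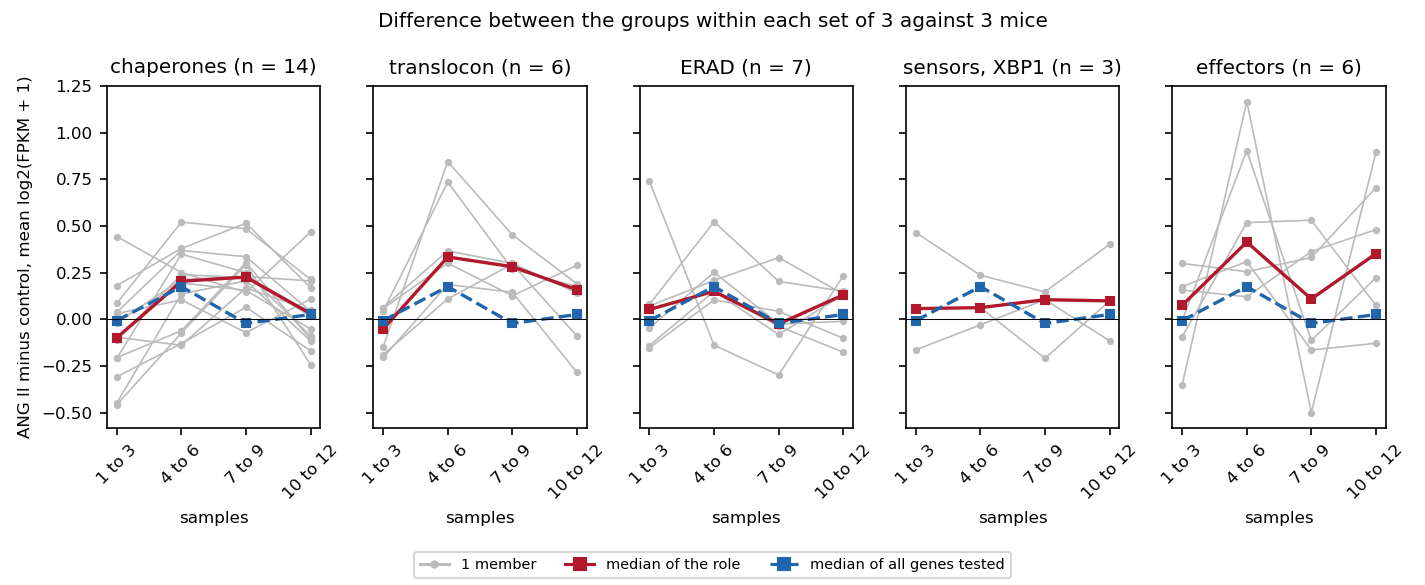
Difference between the group means within each set of 3 against 3 mice (y axis, log2(FPKM + 1)), for each gene (grey), the median of its role (red) and the median of all genes tested (blue, dashed). The red line of the chaperones goes from -0.10 in samples 1 to 3 to 0.23 in samples 7 to 9, while all genes go from -0.01 to -0.02 between these sets.

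Within a group the genes did not vary independently of each other, and the same few mice stood at the ends. Control 3 was the highest control for 16 of the 36 genes, Manf, Sdf2l1, Hyou1 and Ssr4 among them. ANG II 12 was the lowest ANG II mouse for 17, and ANG II 7 the highest for 12. Manf, a secreted ER stress factor, was 37.0 FPKM in control 3 where the other controls were between 14.5 and 26.2. In ANG II 12 it was 12.0 FPKM, below the other 11 ANG II mice. Sdf2l1, a partner of the BiP cochaperones, was likewise 11.6 FPKM in control 3 and 2.32 FPKM in ANG II 12, the ends of all 24 mice.

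These mice also stood at the ends of a measure over all genes, the median deviation of genes with transcripts over 4500 bases minus that of genes with transcripts under 1500 bases. It was -0.55 (log2) in control 3, -0.20 in ANG II 7 and 0.36 in ANG II 12, with a mean of -0.07 ± 0.18 in controls and 0.06 ± 0.14 with ANG II (SD, n = 12). The genes for which control 3 was the highest control had a median longest transcript of 2152 bases. The 4 for which it was the lowest, Dnajc3, Atf6, Ern1 and Sel1l, had one of 6623 bases. The part of this gradient in the results was not tested beyond refitting. Without control 3 and ANG II 12, 15 of the 36 genes were higher, the 14 and Sec61b, where 20.4% of all genes were higher. Atf6 then had a log2 fold change of 0.22 and Dnajc3 0.24 (limma adjusted p = 0.00835 and 0.0371), while Manf moved to 0.08 and Sdf2l1 to 0.04 (adjusted p = 0.636 and 0.822). With the gradient as a term of the fit, 14 of the 36 were higher (16.6% of all genes). Dnajc3 at 0.17 and Ppp1r15a at 0.35 no longer passed (adjusted p = 0.0852 and 0.0638), Pdia6 at 0.18 and Sec61b at 0.51 did (adjusted p = 0.0345 and 0.00897), and Atf6 was at 0.15 (adjusted p = 0.00439).

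**Figure D5:**
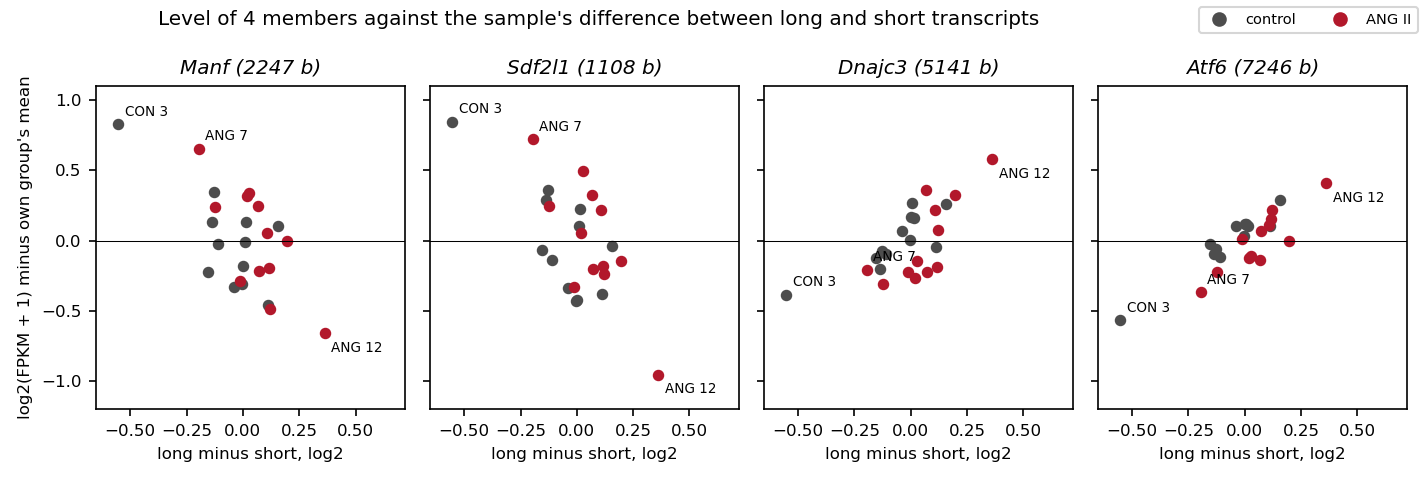
Level of Manf, Sdf2l1, Dnajc3 and Atf6 in each mouse, as log2(FPKM + 1) minus the mean of its own group (y axis), against the mouse's median deviation of long minus short transcripts (x axis, log2), with the longest transcript of each gene in its title. Manf and Sdf2l1 are highest in control 3 at the left end (-0.55) and lowest in ANG II 12 at the right end (0.36), and Dnajc3 and Atf6 run the other way.

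Other genes of the same pathway, from lists of known members, had 42 of 135 higher (31.1%, where 20.9% of all genes were) and 8 lower (5.93%, where 12.6% were) in the same limma fit. Without samples 4 to 6 there were 18 higher (13.3%, all genes 8.4%) and 9 lower (6.67%, all genes 11.7%). Among 31 other folding enzymes and chaperones, 9 rose and 1 fell, from Serp1, which stabilises membrane proteins during ER stress (0.57, adjusted p = 0.000249), to Tmx2, a thioredoxin-like membrane protein (-0.43, adjusted p = 6.07e-05). Of these 31, 1 was higher (3.23%, all genes 8.4%) and 1 lower without samples 4 to 6. Of 32 further genes of translocation, signal peptidase and glycosylation, 3 were higher (9.38%, all genes 8.4%) and 1 lower without samples 4 to 6. In the main fit 6 rose (18.8%, close to the share of all genes) and 1 fell. The signal peptidase subunit Spcs3 was at 0.42 (adjusted p = 2.48e-05) and Sec61a2, the second form of the channel subunit, at -0.17 (adjusted p = 0.0102). Spcs3 was 14.8 ± 1.36 FPKM in controls and 20.4 ± 2.73 with ANG II (SD, n = 12), all 12 ANG II mice above the control median.

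ERAD had 12 of 22 further genes higher (54.5%, where 20.9% of all genes were) and 2 lower. The called ones lay between Ubxn4 (0.28, adjusted p = 0.000676) and the ligase Rnf5 (-0.27, adjusted p = 0.00331). Without samples 4 to 6 there were 4 higher (18.2%, all genes 8.4%) and 2 lower. With median-ratio scaling 7 were higher (31.8%, all genes 17.1%), and after quantile normalization 6 (27.3%, all genes 13.7%). With the length gradient as a term 7 were higher (all genes 16.6%). Among 20 other sensors and regulators, 1 was higher without samples 4 to 6 (5.0%, all genes 8.4%). In the main fit 5 rose (25.0%, all genes 20.9%) and the rest did not pass. The highest was Creb3l1, a sensor related to ATF6 that is known to drive collagen secretion, at 0.57 (adjusted p = 0.0204), a call that was lost without samples 4 to 6 (0.34, adjusted p = 0.282). Of 30 other targets of the ATF4 arm, 10 rose (33.3%, all genes 20.9%) and 4 fell (13.3%, all genes 12.6%). Nupr1, a small stress-induced nuclear protein, was at 1.42 ± 0.34 (SE, n = 12; adjusted p = 0.00269), with 8.10 ± 4.66 FPKM in controls and 20.3 ± 8.70 with ANG II (SD). Nupr1 was at 0.66 without samples 4 to 6 (adjusted p = 0.0206). Gadd45a, a growth arrest gene, was at -0.80 ± 0.17 (SE, n = 12; adjusted p = 0.000993), with 9.67 ± 2.85 and 5.23 ± 2.17 FPKM. Without samples 4 to 6 this list held 9 higher and 5 lower.

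Markers of cell types moved with the groups, where 20.9% of all genes were higher and 12.6% lower. Summed FPKM of 12 fibroblast markers, 6 of them higher and 1 lower, was 765.5 to 1939 in controls and 1370 to 3848 with ANG II. In samples 4 to 6 it was 765.5 to 1055 in controls and 2529 to 3848 with ANG II, which include the lowest control and the highest ANG II mouse. Of the 14 genes that rose, 6 had their largest difference in samples 4 to 6 (Pdia3, P4hb, Edem1, Sec61a1, Ssr1 and Ssr3). The other 8 had it elsewhere: samples 7 to 9 for 4 of them, samples 10 to 12 for 3 and samples 1 to 3 for Atf6. How all genes divide in this way was not counted. All 12 macrophage markers were higher, with summed levels of 302.6 to 680 in controls and 437 to 1274 with ANG II. Leaving samples 4 to 6 out, 3 of the 12 macrophage and 2 of the 12 fibroblast markers were higher, where 8.4% of all genes were. Of 12 cardiomyocyte markers 1 was higher and 6 were lower, with sums of 53990 to 68830 and 41910 to 59890. After quantile normalization 2 were higher and 2 lower. Counts were 1 higher and 1 lower of 10 for endothelial cells, 3 and 2 of 10 for smooth muscle and pericytes, 1 and 2 of 8 for B and plasma cells, 5 and 0 of 5 for red blood cells, 0 and 0 of 4 for atrial myocytes and 8 and 0 of 8 for dividing cells. The atrial markers varied widely between mice, with sums of 10.5 to 3309 in controls and 5.49 to 2390 with ANG II. No marker found in the table was at 0 in every mouse, and Myl2, the ventricular light chain, was the highest cardiomyocyte marker at a mean of 13230 FPKM in controls. The part of the cell mixture in the rise of the 14 genes was not tested.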

How the data were processed

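RNA of 24 left ventricles (12 per group) was sequenced from oligo(dT)-selected libraries; the submitters' processing notes name HISAT, Bowtie2 and RSEM, without versions, and the build and the read depth are not given in the sources used here. The authors deposited 1 table of FPKM for 14912 genes. The deposited values are treated here as a score on the FPKM scale, since they are not plain FPKM and the methods describe no further step: 2741 values (0.766%) are negative, and pairs of mice within 4 sets shared 218 to 546 exactly tied genes, against at most 12 in pairs of 1 group from different sets and at most 14 in pairs from different groups. The sets of the groups were matched by sample number. How the values came to be so, and what it does to p-values, was not tested. The study describes 16 mice a group; the others are not analysed here.

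Negative values were set to 0, genes averaging 0.1 FPKM or more were kept (14026, among them all 36), and log2(FPKM + 1) was compared between groups with limma 3.58.1 in R 4.3.3 (lmFit, eBayes with intensity trend; two-sided, Benjamini-Hochberg over all genes tested, called at 0.05). The same model with group, set and their product gave an F-test of the difference between sets. The mice are separate animals, but their values are linked within sets. The p-values therefore rest on the spread of the deposited values, which may differ from that between mice. Members and lists were chosen with earlier results of these data known, so their counts are not independent support. Named genes were all members and, of each pathway list, the called gene with the highest and with the lowest log2 fold change; cell type lists are given by counts and summed level. Transcript lengths (longest protein-coding) are from GENCODE vM21, and genes averaging 5 FPKM or more entered the length gradient. Fits were tested on simulated data of independent mice, with larger changes than those of the 36 genes. That test does not cover small changes or values linked within sets. Alternatives were other pseudocounts, filters, scalings and tests, a replicate block, set as a term, and leaving out sets or single mice; 2 more (without control 3 and ANG II 12; the length gradient as a term) were added after seeing the data. Deviations of same-numbered mice had correlations of -0.557 to -0.001, and of -0.424 to 0.268 after set means were removed. The main fit pairs no mice. Since the deposited values came by an unknown step, these correlations cannot exclude a pairing by number.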

Additional observations from a re-analysis of the deposited data

Results flagged for a closer look

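The difference between the groups varied between the 4 sets of samples for 2 of the genes named, by the limma F-test of the group by set terms. For Trib3 the adjusted p was 0.0384, with 0.90 on the log2 scale in samples 4 to 6 and between -0.11 and 0.22 in the other sets. For Nupr1 it was 0.00085, with 3.69 in samples 4 to 6 and between 0.50 and 0.85 in the others. Why samples 4 to 6 stood apart was not tested.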

How the results depend on the processing

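Of the 36 genes, 14 were higher in the main comparison, 6 without samples 4 to 6, 7 without samples 7 to 9 and 6 with a replicate block. The block treats same-numbered mice as pairs, and whether they are pairs is not known. The block called 1586 of all genes and 22 other pathway genes higher. Leaving out 1 mouse gave 12 to 16 of the 36. Quantile normalization called 1 of the 36 lower (Syvn1), 1922 of all genes higher and 2930 lower, and 13 other pathway genes lower. Without samples 4 to 6, 1177 of all genes and 18 other pathway genes were higher. No gene of the 36 that was called changed sign in any fit. The sign of genes that were not called did change, and their log2 fold changes were as follows. Without samples 1 to 3 they were 0.025 for Hspa5, 0.045 for Calr, 0.075 for Manf, -0.016 for Ern1, -0.068 for Herpud1, 0.015 for Derl1 and 0.016 for Ssr4. Without samples 4 to 6 they were 0.040 for Hspa5, -0.016 for Pdia4, -0.039 for Ddit3, -0.018 for Ern1 and -0.027 for Derl2. The fit without samples 7 to 9 gave -0.056 for Ssr2, and that without samples 10 to 12 gave 0.013 for Calr, -0.030 for Ern1 and 0.042 for Ssr4. Without control 3 and ANG II 12 the values were 0.012 for Hspa5, 0.053 for Calr, 0.044 for Sdf2l1, 0.080 for Manf, -0.040 for Ern1, -0.00010 for Herpud1, 0.014 for Derl1 and 0.038 for Ssr4. With the length gradient as a term they were 0.038 for Hspa5, 0.094 for Calr, 0.13 for Sdf2l1, 0.16 for Manf, 0.030 for Xbp1, -0.068 for Ern1, -0.029 for Herpud1, 0.031 for Derl1 and 0.087 for Ssr4. Median-ratio scaling gave -0.0061 for Canx, -0.038 for Ern1, -0.0031 for Derl2 and -0.017 for Ssr2. Quantile normalization gave -0.024 for Creld2, -0.012 for Ddit3, -0.097 for Ern1 and -0.027 for Derl2. Leaving out single mice moved 6 genes across 0, with ranges for Calr (-0.060 to 0.028), Ern1 (-0.021 to 0.022), Hspa5 (-0.029 to 0.021), Manf (-0.12 to 0.020), Ssr2 (-0.0038 to 0.074) and Ssr4 (-0.076 to 0.0024). The causes were not tested.

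Read depth is unknown, so no counting error can be given, and the deposited values are not plain FPKM, by a step that is not known. Low levels, such as those of Derl3, Trib3 and Asns, are the least certain. Apart from that, the added 1 FPKM shrinks their fold changes. Derl3, with means of 0.178 FPKM in controls and 0.342 with ANG II, had a log2 fold change of 0.19 on this scale.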
